A study of Homo sapiens with 10 samples.

Results

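The genes described here are the ZBTB transcription factors of HEK293, an established human embryonic kidney cell line: every transcript whose accession maps to a symbol made of ZBTB, a number and at most 1 letter. There were 37 such genes, each with 1 transcript, among 24994 genes and other features in the files. The symbols ZBTB2, ZBTB26, ZBTB32 and ZBTB7B were not analysed here. The study sequenced mRNA from cells prepared as for CLIP, in which proteins are crosslinked to the RNA they bind and then pulled down with an antibody. Per the labels, 2 libraries came from untreated cells, 2 from cells given 4-thiouridine (4SU, which cells incorporate into their RNA in place of uridine) at 1 mM for 12 to 14 h, 2 from cells given 4SU and then crosslinked with ultraviolet light at 365 nm, and 2 from cells without 4SU crosslinked at 254 nm. Within each of these groups the libraries are called A and B. There was also 1 library of cells that received an siRNA to HuR, an RNA-binding protein encoded by ELAVL1, and 1 of cells that received an siRNA to GFP, both without 4SU or crosslinking. All groups were the same cell line in monolayer culture, and the labels do not tell whether A and B were separate cultures, so the p-values reflect a spread between samples that may be technical.

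ZBTB proteins carry a BTB domain at the amino end, through which they pair with each other and recruit co-repressor complexes, and a row of C2H2 zinc fingers at the carboxyl end that reads DNA. Most known members repress transcription, and several decide between blood cell lineages, read methylated CpG, bind telomeres or control cell cycle inhibitors. Many of these roles are known from particular tissues.

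The start of the coding sequence shows both what members share and how far they differ in base composition. The first 120 coding bases of 4 members are printed here as examples of members that differed in opposite directions in the comparisons that follow. ZBTB1 and ZBTB33 (Kaiso) were low after crosslinking at 254 nm and in the HuR siRNA library, and ZBTB17 and ZBTB45 were high in both. ZBTB33 was not the most extreme in either. ZBTB18, the lowest at 254 nm, had 54.3% coding GC, and ZBTB10, lower than ZBTB33 in the siRNA pair, had 49.8%. Each stretch encodes the start of the protein, up to and into the BTB domain, and lies in 1 exon in GENCODE 29 on GRCh38. The stretch of ZBTB1 is at chr14:64521505-64521624 on the plus strand, that of ZBTB33 at chrX:120253416-120253535 on the plus strand, that of ZBTB17 at chr1:15948376-15948495 on the minus strand, and that of ZBTB45 at chr19:58517554-58517673 on the minus strand. G and C are in capitals.
ZBTB1: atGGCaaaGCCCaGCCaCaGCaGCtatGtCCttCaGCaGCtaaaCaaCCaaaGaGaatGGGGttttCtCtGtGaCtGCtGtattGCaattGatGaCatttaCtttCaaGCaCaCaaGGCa
ZBTB33: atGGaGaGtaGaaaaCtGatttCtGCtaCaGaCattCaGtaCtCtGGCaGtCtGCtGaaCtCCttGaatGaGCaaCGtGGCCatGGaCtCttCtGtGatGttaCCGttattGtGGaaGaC
ZBTB17: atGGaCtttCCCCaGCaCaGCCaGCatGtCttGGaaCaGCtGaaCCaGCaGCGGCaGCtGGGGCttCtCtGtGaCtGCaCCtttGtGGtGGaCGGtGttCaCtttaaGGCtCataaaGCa
ZBTB45: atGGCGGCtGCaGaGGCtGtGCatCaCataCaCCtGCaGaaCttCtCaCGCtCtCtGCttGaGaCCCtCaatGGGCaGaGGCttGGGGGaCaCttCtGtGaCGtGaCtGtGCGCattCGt
G and C made up 45.0% of the stretch in both ZBTB1 and ZBTB33, 54.2% in ZBTB17 and 56.7% in ZBTB45. Over the whole coding sequence the spread was wider, at 39.3% in ZBTB1, 39.5% in ZBTB33, 62.7% in ZBTB17 and 66.4% in ZBTB45. All 4 stretches hold the 7-base run tCtGtGa, which starts at base 68 in ZBTB1 and ZBTB17, at base 92 in ZBTB33 and at base 95 in ZBTB45, counted from the first base of the start codon. Across the 37 genes, coding GC ran from 37.5% to 70.7% with a median of 52.6%, and transcript length from 1609 to 9351 nt with a median of 4244 nt. The 34 genes that could be tested had a median length of 4416 nt, against 2753 nt for all 13731 tested genes, while median coding GC was 52% against 52.4%.

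ZBTB transcripts were rare, and rarer still after crosslinking. In untreated cells the 37 genes together held 2888 tags (A) and 2441 tags (B), which is 0.0932% and 0.102% of all tags in those libraries. With 4SU alone they held 2483 and 4176 tags, or 0.108% and 0.137%. After 4SU and 365 nm they held 242 and 316 tags, or 0.0101% and 0.0110%, and after 254 nm 771 and 599 tags, or 0.0344% and 0.0227%. Both crosslinked groups therefore lay below all 4 libraries without crosslinking. Most other genes had a smaller share too. Scaled to library totals, the median log2 fold change at 365 nm was −3.63 over the tested members and −2.40 over all tested genes. At 254 nm these medians were −2.28 and −0.998. The median gene had 5 and 6 tags after 365 nm and 11 and 8 after 254 nm, against 72 and 53 in untreated cells and 64.5 and 118 with 4SU alone. At 3 tags or fewer were 13 and 14 genes after 365 nm, 4 and 10 after 254 nm, 4 and 1 in untreated cells and 2 in each library with 4SU alone. The share of all genes at so few tags is not given here.

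**Figure D1:**
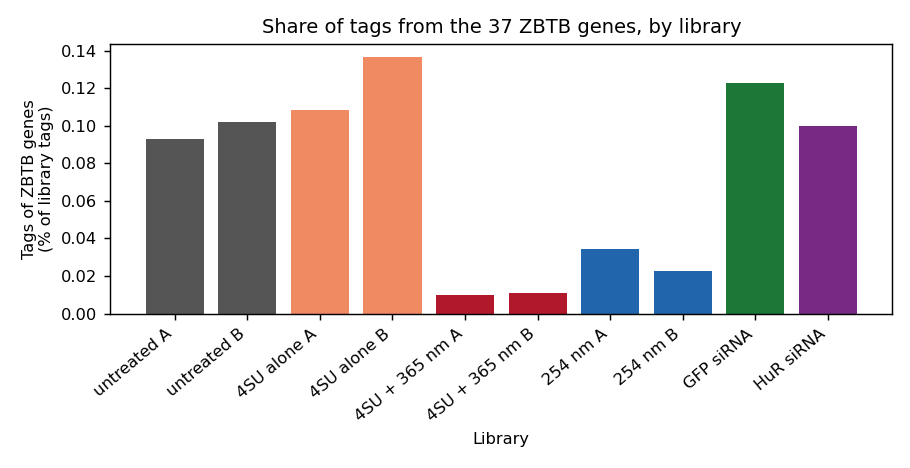
Bars give the tags of the 37 ZBTB genes as a percentage of all tags in each of the 10 libraries. The 4 crosslinked libraries stand between 0.0101% and 0.0344%, below the 6 libraries without crosslinking, which stand between 0.0932% and 0.137%.

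The 8 libraries of the crosslinking design held 2238569 to 3099769 tags. The floor used here was 3 tags. Scaled to library totals alone, 3 tags equal 0.968 to 1.34 CPM, the usual count scaled to a common library size. The CPM levels given here also use edgeR's TMM factors. On that scale 3 tags equal 0.593 CPM in untreated library A, 3.36 in 365 nm library A and 2.09 in 365 nm library B. Intervals and floors cover counting error only. HEK293 markers were present in part. EPCAM had 426 to 1130 tags and KRT18 45 to 275 in these libraries, and NEFL and IRS4 were also counted. Low counts were found for NEFM, with 1 to 17 tags, KRT8, with 0 to 4, and VIM, with 0 to 48. Among markers of other cell types, the leukocyte gene PTPRC had 0 or 1 tag and the monocyte gene CD14 at most 4, and CD3E, HBB and ALB were not among the listed transcripts. COL1A1, a fibroblast collagen, had 27 to 92 tags, and its level was 60.3 ± 4.47 CPM (SD, n = 2) after 365 nm against 14.1 ± 4.36 with 4SU alone; its part in the results was not tested.

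In untreated cells the most abundant ZBTB gene per length was ZBTB11, which regulates nuclear genes for mitochondrial proteins. Levels between genes are given as CPM per kilobase of transcript, normalised with edgeR's TMM factors. ZBTB11 stood at 10.3 ± 1.21 (SD, n = 2), ZBTB48, which binds telomeric repeats and limits telomere length, at 9.76 ± 4.18, and ZBTB18, a repressor needed for the development of cortical neurons, at 8.70 ± 0.835. ZBTB9, which is little characterised, followed at 7.64 ± 0.667 and ZBTB17 (MIZ1), a regulator of cell cycle inhibitor genes, at 7.11 ± 2.89. None of these neighbours differed by more than the sum of their SDs. ZBTB33, which binds methylated CpG and a non-methylated motif, stood at 6.82 ± 0.168, followed by ZBTB40 at 5.66 ± 0.818 and ZBTB12 at 5.63 ± 0.738. The library values behind the first 5 ranks, before division by length, differed between genes in how well the libraries of the group matched. ZBTB11 was at 48.7 and 57.4 CPM in untreated libraries A and B, ZBTB18 at 34.4 and 39.4, and ZBTB9 at 22.2 and 19.6. ZBTB48 was at 30.7 and 16.4 CPM and ZBTB17 at 25.3 and 14.0, so that for both of these genes library A was well above library B.

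At the other end were members best known from other tissues, the lowest being ZBTB20 at 0.0262 CPM per kilobase. ZBTB16 (PLZF), a factor of spermatogonial stem cells and innate-like lymphocytes, had 2 and 3.5 tags in untreated libraries A and B. ZBTB20, known from liver and hippocampus, had 1 and 0 tags, and ZBTB37 had 3 and 5. These 3 genes did not pass the filter on low counts and were in no test. ZBTB46, a marker of classical dendritic cells, had 2 and 7 tags and passed the filter only through the group given 4SU alone, where it had 22 and 36.

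With 4SU alone most ZBTB genes had no detected change, and ZBTB22 and ZBTB12, genes of the major histocompatibility region whose proteins are little characterised, were higher. ZBTB46 was also past the threshold, but since it passed the filter on low counts only through the group in which it was high, it had to differ, and its values are given as a description with no p. By edgeR's quasi-likelihood test with Benjamini-Hochberg adjustment over 13731 genes, 3 of 34 members were higher and 0 lower at an adjusted p under 0.05, against backgrounds of 3.85% higher and 3.69% lower among all tested genes. Leaving out ZBTB46 and ZBTB8B, which each passed the filter through 1 group only, 2 of 32 were higher and 0 lower. At an unadjusted p under 0.05, 10 members were higher and 0 lower, or 9 and 0 of the 32. Of all 13731 tested genes 2981 passed in either direction, and their split by direction is not given here. DESeq2 called 1 member higher and 0 lower, against 1.87% and 2.48% of all genes. The median log2 fold change was 0.27 over the members and 0.02 over all tested genes. Members ranged from −0.66 to 2.59, the value of ZBTB46, and the 32 ranged up to 1.54.

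ZBTB46 stood at 0.396 and 1.85 CPM in untreated cells and at 6.20 and 6.72 with 4SU. ZBTB22 stood at 10.9 and 6.09 CPM in untreated cells and at 22.0 and 27.8 with 4SU, and ZBTB12 at 11.5 and 9.53 against 22.0 and 30.2. In each of these genes both 4SU libraries lay above both untreated libraries. That also held for members with no call, such as ZBTB17 and ZBTB45. The log2 fold change was 1.54 (SE 0.40) with an adjusted p of 0.0120 for ZBTB22 and 1.32 (SE 0.38) with 0.0250 for ZBTB12, by edgeR, and the fitted value of ZBTB46, which rests on 9 tags in untreated cells, was 2.59. Both calls depended on single libraries. Without 4SU library B no member was higher, with edgeR adjusted p of 0.124 for ZBTB22 and 0.271 for ZBTB12. ZBTB12 was also lost without 4SU library A (adjusted p 0.0995, edgeR) and, with ZBTB22, without untreated library B (0.0767 and 0.0780). Without untreated library A the count was 5.

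Members grouped by their roles gave the following after 4SU alone. Of the 3 members that bind methylated CpG, none passed the test: on the log2 scale ZBTB4 differed by 1.14 (edgeR adjusted p 0.0520), ZBTB38 by 0.94 (0.124) and ZBTB33 by −0.13 (0.874). Of the tested members with roles in blood lineages, ZBTB1 and ZBTB7A did not pass it, and ZBTB46 is described above. None of the 2 tested neural members (ZBTB18 and ZBTB45), the 3 telomere and heterochromatin members (ZBTB10, ZBTB24 and ZBTB48) or the 3 tested cell cycle members (ZBTB5, ZBTB17 and ZBTB49) passed it.

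After crosslinking of 4SU-fed cells at 365 nm, 23 of the 34 tested ZBTB genes were lower and none was higher. Among them were ZBTB39, ZBTB21, ZBTB40, ZBTB11 and ZBTB4, which had the smallest p. The contrast asks what crosslinking did to libraries from cells that had all received 4SU. The backgrounds were 33.8% of all tested genes lower and 26.1% higher by edgeR, against 23 and 0 of 34 members. All 34 members had a log2 fold change below 0, from −4.32 to −0.07, with a median of −1.71 against −0.50 over all tested genes. The filter itself bears on these counts, since 11 of the 34 members passed it only through libraries without crosslinking. Of the members called lower, these were ZBTB6, ZBTB8A, ZBTB14, ZBTB18, ZBTB41 and ZBTB43. At an unadjusted p under 0.05, 26 members were lower and 0 higher, where 8828 of all 13731 tested genes passed in either direction. DESeq2 called 18 members lower and 0 higher, against 20.6% and 27.8% of all genes. In bulk samples, fewer cells of a kind and less RNA per cell cannot be told apart, and because these values are relative to the other RNA of the library, they do not show a change in the number of molecules per cell.

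ZBTB39, whose function is little known, stood at 27.1 and 31.9 CPM with 4SU alone and at 1.12 and 2.79 after 365 nm, the latter from 5 tags. ZBTB21 stood at 50.2 and 43.1 CPM with 4SU and at 12.3 and 6.28 after 365 nm. ZBTB40 stood at 42.6 and 58.8 CPM against 5.60 and 16.0. ZBTB11, the most abundant member in untreated cells, was at 31.9 and 35.1 CPM with 4SU and at 10.1 and 4.19 after 365 nm. ZBTB4, which binds methylated CpG, was at 31.6 and 48.9 CPM against 12.3 and 5.58. In all 5 genes both crosslinked libraries lay well below both others, although the crosslinked libraries also differed from each other. Members with no call, such as ZBTB17, ZBTB45 and ZBTB48, also had no overlap between the groups. The log2 fold changes were −3.78 (SE 0.61, adjusted p 1.73e-06) for ZBTB39, −2.40 (SE 0.45, 1.79e-05) for ZBTB21, −2.14 (SE 0.42, 3.87e-05) for ZBTB40, −2.34 (SE 0.46, 5.04e-05) for ZBTB11 and −2.26 (SE 0.47, 8.44e-05) for ZBTB4, all by edgeR. These 5 kept their call without any single library and in all 9 other settings tried.

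By role, all 3 methyl-CpG readers fell at 365 nm, against the background of 33.8% lower, by 2.26 for ZBTB4, 1.95 for ZBTB38 and 1.79 for ZBTB33 on the log2 scale, with edgeR adjusted p of 8.44e-05, 0.000550 and 0.000779. ZBTB33 stood at 29.6 and 35.3 CPM with 4SU and at 8.96 and 9.77 after 365 nm, and ZBTB38 at 32.7 and 28.4 against 10.1 and 6.28. Of the 3 telomere and heterochromatin members, ZBTB10, which binds variant telomeric repeats, and ZBTB24, whose loss causes an immunodeficiency with centromere instability, fell by 2.50 and 1.61 (edgeR adjusted p 0.000727 and 0.00504), while ZBTB48 had −0.68 (0.110). Of the 3 cell cycle members, ZBTB5 and ZBTB49 fell, by 2.55 and 2.74 (0.000275 and 0.00199), while ZBTB17 had a log2 fold change of −0.64 that did not pass the test. Of the 2 neural members ZBTB18 fell by 2.06. It passed the filter on low counts only through libraries without crosslinking, where it was high, and is given with no p. Of the 3 blood-lineage members ZBTB7A fell by 1.28 (edgeR adjusted p 0.0129). The calls of ZBTB24, ZBTB5 and ZBTB7A were lost without 365 nm library B (edgeR adjusted p 0.0714, 0.0737 and 0.220), and that of ZBTB7A also without 4SU library B (0.181). With the length trend removed, alone or with that in coding GC, ZBTB33, ZBTB38, ZBTB24 and ZBTB7A were no longer called.

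Low tag numbers bound what can be said of single members at 365 nm. ZBTB10 had 2 and 4 tags in 365 nm libraries A and B, and ZBTB5 had 9 and 1. ZBTB6, which had the lowest fitted value, was counted with 34 and 48 tags with 4SU alone and with 0 and 1 tags after 365 nm, a log2 ratio of −4.42 with a 95% counting interval from −9.74 to −1.90. ZBTB49 was counted with 28 and 51 tags against 1 and 2, a log2 ratio of −2.78 with an interval from −5.09 to −1.18. Of the 23 calls, 13 held without any single library. Without 365 nm library B the count of lower members was 15, and ZBTB9 and ZBTB12 were among those lost, with edgeR adjusted p of 0.150 and 0.0751. ZBTB12 was also lost without 4SU library B (0.0764). Scaled to library totals without TMM factors, all 34 members were lower by edgeR, with a median of −3.63, while 72.6% of all genes were lower with a median of −2.40.

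**Figure D2:**
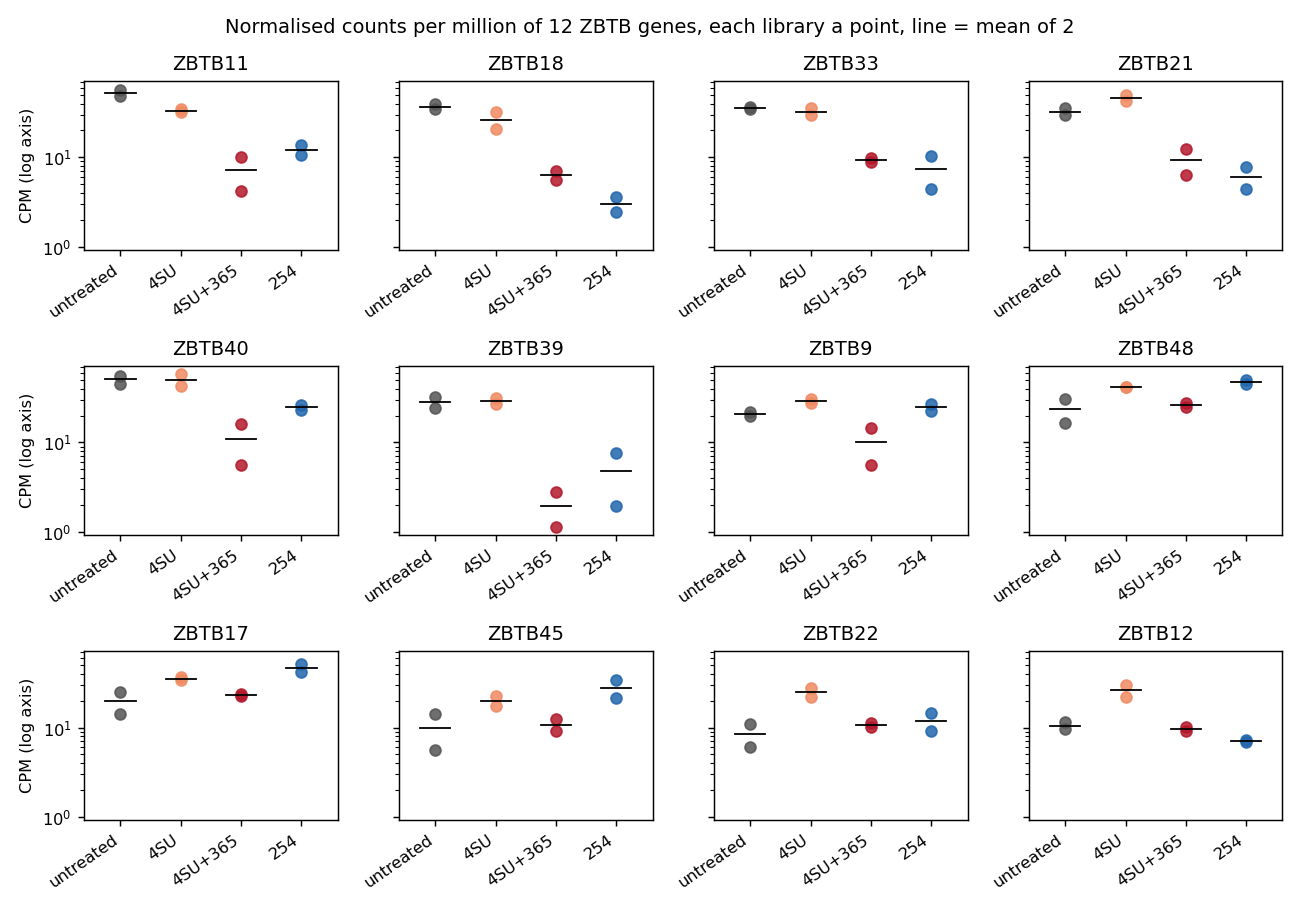
Each point is the level of a gene in 1 library in CPM (log axis) for 12 ZBTB genes in the 4 groups of 2 libraries, and lines mark the group means. ZBTB11, ZBTB18, ZBTB33, ZBTB21, ZBTB40 and ZBTB39 lie lower in both crosslinked groups, whereas ZBTB48, ZBTB17 and ZBTB45 have their highest group mean after 254 nm and ZBTB22 and ZBTB12 theirs with 4SU alone.

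After crosslinking of unfed cells at 254 nm, ZBTB genes changed in both directions. By edgeR, 18 of the 34 tested members fell, with ZBTB18, ZBTB21, ZBTB11, ZBTB33 and ZBTB44 at the smallest p, and 3 rose: ZBTB45, ZBTB17 and ZBTB48. The backgrounds were 28% of all tested genes lower and 25.2% higher. The filter on low counts bears on these counts as well, since 11 of the 34 members passed it only through libraries without crosslinking. Of the members called lower, these were ZBTB3, ZBTB6, ZBTB18, ZBTB41 and ZBTB43. The median log2 fold change of the members was −1.43, against −0.14 over all tested genes, with a range from −3.59 to 1.45 and 25 of 34 below 0. The members' median was −0.76 with the length trend removed and −0.44 with the length and coding GC trends removed, against −0.05 and −0.004 over all genes. Scaled to library totals, 24 members were lower and 0 higher, against 47.1% and 10.1% of all genes and a median of all genes of −0.998, so the 3 increases are relative to the TMM scale.

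Among the members that fell, ZBTB18 stood at 34.4 and 39.4 CPM in untreated cells and at 3.62 and 2.43 after 254 nm. ZBTB21 stood at 29.5 and 35.7 CPM against 7.69 and 4.38, and ZBTB11 at 48.7 and 57.4 against 13.6 and 10.7. ZBTB33 stood at 35.01 and 36.25 CPM in untreated cells and at 10.4 and 4.38 after 254 nm. ZBTB44 stood at 22.0 and 44.5 CPM against 5.88 and 7.30, with untreated libraries that differed from each other. The groups did not overlap in any of the 5, nor in members with no call such as ZBTB12 and ZBTB7A. The share of all tested genes without overlap is not given here. The log2 fold changes were −3.59 (SE 0.48) for ZBTB18, −2.42 (SE 0.43, adjusted p 1.20e-05) for ZBTB21, −2.12 (SE 0.39, 1.73e-05) for ZBTB11, −2.25 (SE 0.42, 2.35e-05) for ZBTB33 and −2.32 (SE 0.43, 2.40e-05) for ZBTB44, all by edgeR. All 5 held without any single library. With trends in transcript length and coding GC removed from all genes, ZBTB18 kept its call, while ZBTB21, ZBTB11, ZBTB33 and ZBTB44 did not. ZBTB18, however, passed the filter on low counts only through libraries without crosslinking, where it was high, and its value is given with no p.

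Among the members that rose, ZBTB45, with a reported role in glial differentiation, stood at 14.2 and 5.56 CPM in untreated cells and at 33.9 and 21.4 after 254 nm. ZBTB17 stood at 25.3 and 14.0 CPM against 51.1 and 42.4, and ZBTB48 at 30.7 and 16.4 against 45.2 and 49.7. In all 3 genes untreated library B lay lowest of the 4 and the groups did not overlap. The groups did not overlap either in ZBTB9 and ZBTB25, which were higher after 254 nm with no call. The log2 fold changes were 1.45 (SE 0.42, adjusted p 0.00322), 1.23 (SE 0.36, 0.00350) and 1.00 (SE 0.35, 0.0151) by edgeR. Without untreated library B, 1 of the 3 was called: ZBTB45 had 0.95 (edgeR adjusted p 0.0501) and ZBTB48 0.61 (0.156). ZBTB45 was also lost without 254 nm library A (0.0624) and ZBTB48 without 254 nm library B (0.0905). None of the 3 was called with library totals, with the coding GC trend removed, or with both trends removed.

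By role, the 3 methyl-CpG readers again fell, against the background of 28% lower: ZBTB38 by 2.50, ZBTB33 by 2.25 and ZBTB4 by 1.34 on the log2 scale, with edgeR adjusted p of 8.06e-05, 2.35e-05 and 0.00969. ZBTB4 was lost without 254 nm library B (0.0750) or untreated library B (0.0677). None of the 3 was called with the length and coding GC trends removed, and ZBTB33 alone was with the length trend removed. Of the telomere and heterochromatin members, ZBTB10 and ZBTB24 fell, by 2.21 and 1.96 (0.000220 and 0.000434), and ZBTB48 rose. Of the cell cycle members ZBTB5 fell, by 1.69 (0.00326; 0.0891 without 254 nm library B), ZBTB17 rose and ZBTB49 had 0.21 (0.759). Of the blood-lineage members ZBTB1, needed for lymphoid development, fell by 2.78 (4.48e-05), from 10.3 and 32.3 CPM in untreated cells to 4.07 and 1.95. The neural pair went apart, with ZBTB18 lower and ZBTB45 higher.

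The contrasts at 365 nm and 254 nm share no library, so their calls can be set side by side. Lower in both were 15 members: ZBTB4, ZBTB5, ZBTB6, ZBTB10, ZBTB11, ZBTB18, ZBTB21, ZBTB24, ZBTB33, ZBTB34, ZBTB38, ZBTB39, ZBTB40, ZBTB41 and ZBTB43. They made up 65.2% of the members lower at 365 nm and 83.3% of those lower at 254 nm. Against 15 of 34 members, 2550 of all 13731 tested genes (18.6%) were lower in both. Those 2550 were among 4636 genes lower at 365 nm and 3849 lower at 254 nm. With the length and coding GC trends removed, 4 members were lower in both (ZBTB12, ZBTB18, ZBTB39 and ZBTB43), against 8.13% of all genes, and the 254 nm value of ZBTB40 was 0.59. A further 8 were called lower at 365 nm alone and 3 at 254 nm alone. Of the 15 lower in both, ZBTB6, ZBTB18, ZBTB41 and ZBTB43 passed the filter on low counts only through libraries without crosslinking. Across the 34 members the log2 fold changes had a Spearman correlation of 0.487 and a Pearson correlation of 0.503, as a description across genes, which share libraries and are not independent.

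The difference between the crosslinking effects was itself tested, as the 365 nm effect in fed cells minus the 254 nm effect in unfed cells. At an edgeR adjusted p under 0.05 it was called lower in 5 of 34 members, ZBTB45, ZBTB17, ZBTB48, ZBTB9 and ZBTB49, against a background of 7.09%. None was called higher, against 9.99%. In sign alone, 21 of the 34 had a difference below 0. At an unadjusted p under 0.05, 7 members were lower and 3 higher, where 4339 of all 13731 tested genes passed in either direction. DESeq2 called 2 members lower and 0 higher, against 3.23% and 11.5% of all genes. The median difference was −0.80 over the members and −0.15 over all tested genes, and the members' median was −0.33 without 254 nm library A and −0.49 without 365 nm library B. The 3 members with the smallest p are those that rose at 254 nm, and all 5 had a 254 nm effect above 0 and a 365 nm effect below 0. Because the 254 nm effect is subtracted, a high value there lowers the difference by construction. A 365 nm effect below 0 was shared by all 34 members.

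ZBTB45 stood at 22.8 and 17.4 CPM with 4SU alone and at 12.3 and 9.07 after 365 nm. ZBTB17 stood at 36.9 and 33.95 CPM against 23.5 and 22.3, and ZBTB48 at 42.0 and 42.2 against 28.0 and 25.1. These 3 genes were thus lower in both 365 nm libraries than in both libraries with 4SU alone, although none passed the 365 nm test, with log2 fold changes of −0.94, −0.64 and −0.68. ZBTB9 stood at 22.2 and 19.6 CPM in untreated cells, 30.5 and 27.8 with 4SU, 14.6 and 5.58 after 365 nm and 22.6 and 27.3 after 254 nm. ZBTB49, an activator of the cell cycle inhibitor CDKN1A, stood at 4.55 and 3.44 CPM in untreated cells, 7.90 and 9.52 with 4SU, 1.12 and 1.40 after 365 nm and 4.98 and 4.38 after 254 nm. In ZBTB9 and ZBTB49 the 254 nm libraries lay near the untreated ones, with log2 fold changes of 0.25 and 0.21, while the 365 nm effects were −1.63 and −2.74. The differences were −2.39 (SE 0.63, adjusted p 0.00635) for ZBTB45, −1.87 (SE 0.52, 0.0101) for ZBTB17, −1.68 (SE 0.51, 0.0182) for ZBTB48, −1.88 (SE 0.59, 0.0224) for ZBTB9 and −2.95 (SE 0.95, 0.0264) for ZBTB49, by edgeR. Without 365 nm library B none of the 5 was called, with edgeR adjusted p from 0.0700 for ZBTB17 to 0.266 for ZBTB9.

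**Figure D3:**
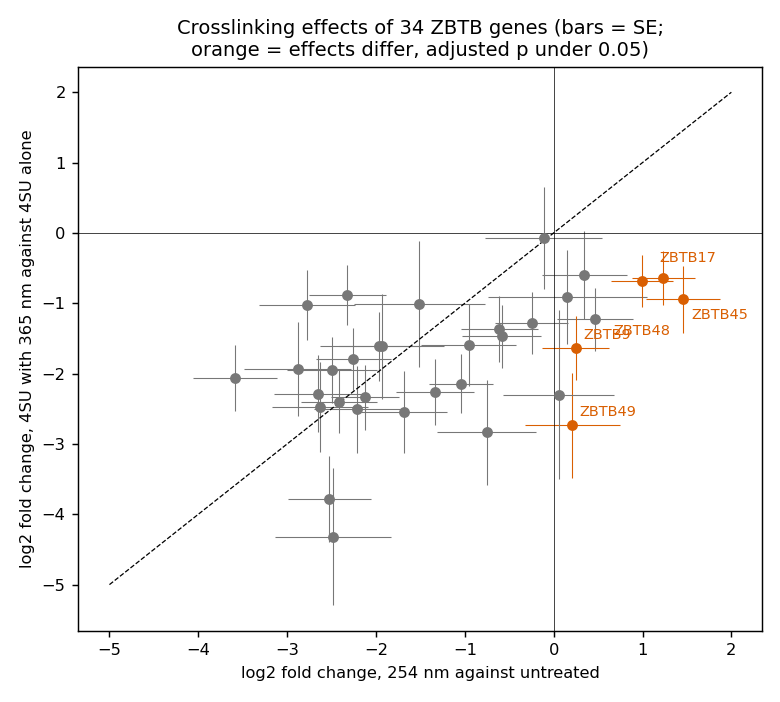
Each point is 1 of 34 ZBTB genes, with the log2 fold change of 254 nm against untreated cells on the x axis, that of 4SU with 365 nm against 4SU alone on the y axis, bars for the SE and a dashed line where both are equal. All 34 points lie below 0 on the y axis, and the 5 orange genes, whose effects differ by the edgeR test, lie right of 0 on the x axis.

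A direct comparison of 4SU with 365 nm against 254 nm alone mixes feeding and wavelength. In it ZBTB1 was higher (log2 fold change 1.72, edgeR adjusted p 0.0377), and ZBTB9, ZBTB45 and ZBTB17 were lower (−1.40 with 0.0212, −1.40 with 0.0250 and −1.03 with 0.0415). ZBTB1 stood at 7.84 and 11.9 CPM after 4SU with 365 nm and at 4.07 and 1.95 after 254 nm. The backgrounds were 15.2% higher and 12.5% lower. The median log2 fold change was −0.05 over the members and −0.10 over all tested genes. None of the 4 calls held without 365 nm library B, where the edgeR adjusted p ranged from 0.214 for ZBTB17 to 0.394 for ZBTB9. Each was lost without at least 1 other library as well: without 365 nm library A for ZBTB1 (0.0596), ZBTB45 (0.0742) and ZBTB17 (0.158), without 254 nm library B for ZBTB1 (0.209), ZBTB9 (0.0966) and ZBTB17 (0.0683), without 254 nm library A for ZBTB45 (0.226) and ZBTB17 (0.216), and without 4SU library A or B for ZBTB17 (0.0531 and 0.0525).

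Base composition and transcript length ordered the members in several comparisons, given here as descriptions across genes that share libraries. With coding GC, the Spearman correlation of the log2 change over 34 members was 0.491 for 4SU alone, 0.376 at 365 nm, 0.575 at 254 nm and 0.829 in the siRNA pair. Over all genes with a coding GC the same correlations were 0.425, 0.183, 0.456 and 0.651. With length they were −0.365, −0.383, −0.686 and −0.486 over the members and −0.193, −0.447, −0.650 and −0.365 over all genes. Length and coding GC were themselves correlated among the members, at −0.418. The log2 ratio of library A to library B also followed coding GC across members, with a Spearman correlation of 0.479 in untreated cells, −0.403 with 4SU alone, 0.164 at 365 nm and −0.138 at 254 nm. The part of these library differences in the results was not tested.

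The members were split at 48% and 59% coding GC, limits chosen after the values were seen. ZBTB12 and ZBTB22, higher with 4SU, and all 3 members higher at 254 nm (ZBTB17, ZBTB45 and ZBTB48) were among the 11 members over 59%. The members over 59% had a median log2 change of 0.89 with 4SU, −1.01 at 365 nm and −0.11 at 254 nm. Those under 48%, 12 members, had 0.00, −1.86 and −2.29, and the 11 between had 0.00, −2.30 and −1.93. The order by GC was therefore not monotonic at 365 nm. At 254 nm, 9 of the 12 low-GC members, 8 of the 11 in between and 1 of the 11 high-GC members (ZBTB4) were called lower, and at 365 nm the counts were 9, 9 and 5. With the length trend removed from all genes, 15 members were lower at 365 nm (background 25.9%) and 9 at 254 nm (background 17.8%). With the trends in length and coding GC both removed, 19 were lower at 365 nm (background 29%) and 5 at 254 nm (background 13.5%), and 9 were higher with 4SU (background 7.95%).

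**Figure D4:**
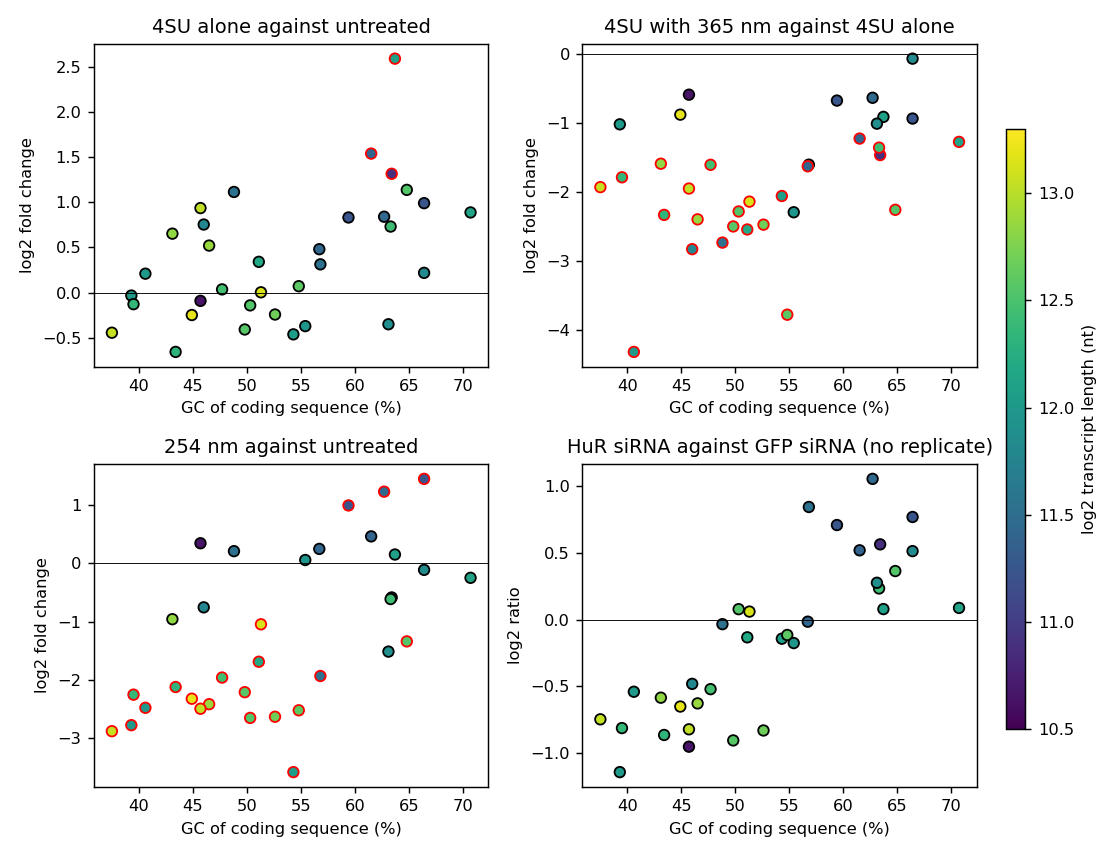
Each point is 1 of 34 ZBTB genes, with the GC of its coding sequence in percent on the x axis and its log2 change on the y axis in 4 comparisons. Colour is log2 transcript length, and red outlines mark genes called by edgeR. The 11 genes over 59% GC include all 6 genes outlined as higher with 4SU or at 254 nm, and in the siRNA pair all 11 lie above 0. The limit of 59% was chosen after the values were seen. Among the 6 is ZBTB46, which passed the filter only through the group given 4SU alone, where it was high.

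In the siRNA pair the targeted gene was lower with the HuR siRNA: ELAVL1 had 1905 tags (211.6 CPM) in the GFP siRNA library and 638 tags (73.3 CPM) in the HuR siRNA library, a log2 ratio of −1.53 with a 95% counting interval from −1.66 to −1.40. In the same pair ZBTB17, ZBTB3, ZBTB45 and ZBTB48 were more than 1.5-fold higher and 11 members, led by ZBTB1, ZBTB25 and ZBTB10, more than 1.5-fold lower. Each siRNA has 1 library, so these are differences between 2 libraries with no replicate check and no test. The 4 higher and 11 lower are of 34 members with at least 50 tags in the pair, against 16.9% higher and 19.7% lower among 13928 genes. The median log2 ratio was −0.12 over the members and −0.01 over all these genes. These libraries held 8688262 and 9016803 tags, and the members took 10669 of them (0.123%) with the GFP siRNA and 9019 (0.1%) with the HuR siRNA.

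ZBTB17 had 215 tags with the GFP siRNA and 434 with the HuR siRNA, a log2 ratio of 1.06 with an interval from 0.82 to 1.31. ZBTB3 had 40.5 and 71.3 tags, partly tags split with other transcripts, a log2 ratio of 0.84 from 0.30 to 1.47. ZBTB45 had 126 and 209 tags, a log2 ratio of 0.77 from 0.45 to 1.11. The high end of the pair thus held ZBTB17 and ZBTB45, which also rose at 254 nm. At the low end, ZBTB1 had 464 and 202 tags, a log2 ratio of −1.14 from −1.40 to −0.91. ZBTB25, a neighbour that shares exonic bases with ZBTB1 on the opposite strand, had 106 and 52 tags, a log2 ratio of −0.95 from −1.49 to −0.49. ZBTB10 had 399 and 205 tags, a log2 ratio of −0.91 from −1.16 to −0.67. Whether the libraries kept strand is not given in the sources used here, so reads from the shared stretch of ZBTB1 and ZBTB25 cannot be told apart. ZBTB33, the most tagged member with the GFP siRNA, had 863 and 474 tags, a log2 ratio of −0.81, and its fellow methyl-CpG reader ZBTB38 had −0.82, while ZBTB4 had 0.36. All 12 members under 48% coding GC had a ratio below 0, with a median of −0.70, and all 11 over 59% had one above 0, from 0.08 to 1.06. These limits were chosen after the values were seen.

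**Figure D5:**
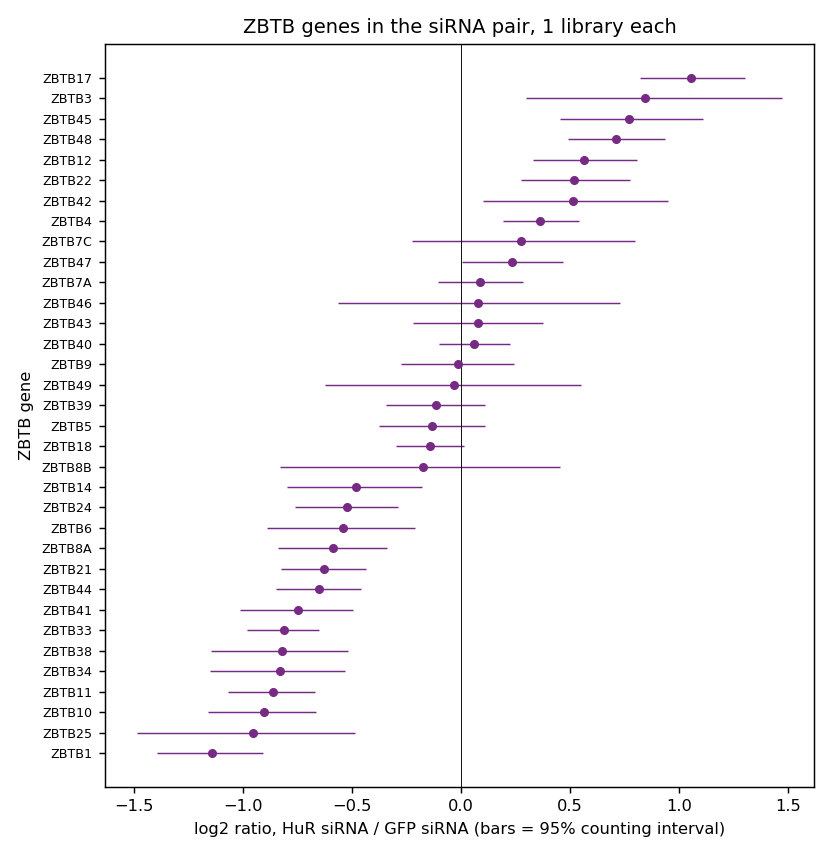
Points give the log2 ratio of HuR siRNA to GFP siRNA for 34 ZBTB genes with at least 50 tags in the pair, 1 library each, and bars are 95% counting intervals. ZBTB17 is highest at 1.06 and ZBTB1 lowest at −1.14.

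Other BTB zinc finger genes, which carry the same domains under other names, were mostly lower at 365 nm as well. Of 8 in the list 7 were tested, and 6 were lower and 0 higher by edgeR, against backgrounds of 33.8% and 26.1%, with a median of −2.03; the ZBTB members had a median of −1.71 and all tested genes −0.50. At an unadjusted p under 0.05 the counts were also 6 and 0, where 8828 of all 13731 tested genes passed in either direction. ZNF131 fell by 2.29, MYNN by 2.50, GZF1 by 2.03 and PATZ1 by 1.68 on the log2 scale (edgeR adjusted p 0.000102, 0.000302, 0.000513 and 0.000986). At 254 nm 3 of the 7 were lower, ZNF131, GZF1 and HIC2 (−1.55, −1.14 and −1.15), against 28% of all genes, and the median was −0.90. With 4SU alone none of the 7 passed the test. At an unadjusted p under 0.05, 1 was higher, where 2981 of all 13731 tested genes passed in either direction.

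The proteins that ZBTB factors bind, and genes reported as their targets, did not move in 1 direction. Of 17 co-repressor and partner genes, 4 were higher and 9 lower at 365 nm by edgeR, against backgrounds of 26.1% and 33.8%, with a median of −0.99. BCOR, a co-repressor bound by BTB domains, fell by 3.29 (edgeR adjusted p 3.39e-08), while RBX1, a subunit of cullin ubiquitin ligases, and NPM1, a nucleolar protein, rose by 2.72 and 2.95 (8.36e-08 and 2.25e-07). At 254 nm 2 were higher and 7 lower, against 25.2% and 28%, with a median of −0.71, and with 4SU alone 0 were higher and 1 lower. Of 10 genes reported as targets of ZBTB factors, 3 were higher and 5 lower at 365 nm (backgrounds 26.1% and 33.8%), with a median of −0.80, 2 were higher and 4 lower at 254 nm (25.2% and 28%), with a median of −0.06, and 1 was lower with 4SU alone. By smallest p at 365 nm, the cell cycle inhibitor gene CDKN2A and the glycolytic gene PKM rose by 3.47 and 3.36 (edgeR adjusted p 9.64e-08 and 9.90e-07), while CDCA7 fell by 2.04 and the replication gene MCM10 fell by 1.63 (7.55e-05 and 0.000555). At 254 nm CDKN2A rose by 2.002, CDCA7 fell by 1.24, MCM10 fell by 1.40, and PKM had 1.02, which did not pass the test (edgeR adjusted p 0.000327, 0.00373, 0.001003 and 0.0727).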

How the data were processed

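Per the file headers, each deposited file lists transcripts with the authors' tag counts, the transcript length and the authors' own expression signal, scaled by transcript length and library size. The deposited expected counts are fractional for some transcripts, 16 of the 37 ZBTB genes among them, and list only values above 0; the signal was not used. The aligner, genome build, annotation and strandedness were not given in the sources used here. In GENCODE 29, 12 members share exonic bases with another gene, 10 of them on the opposite strand. Accessions were matched to RefSeq symbols (GRCh38.p14) for 15886 of 25005 transcripts and to GENCODE 29 for 134 more; 8985 stayed unnamed. The printed coding starts and coding GC come from GENCODE 29.

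Counts were rounded to whole tags. Untreated, 4SU, 365 nm and 254 nm libraries entered a joint quasi-likelihood model in edgeR 4.0.16 (R 4.3.3), with group means, TMM scaling and filterByExpr, which kept 13731 genes. The common biological coefficient of variation was 0.244, with 4 residual and 40 prior degrees of freedom. Tests were two-sided, adjusted by Benjamini-Hochberg over all tested genes and called under 0.05. The SE was approximated as fold change over the root of F. The siRNA pair was described by log2 ratios with TMM factors, a prior count of 2 and 95% exact counting intervals. The script was tested on simulated data.

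Values in the compared libraries are given for the 5 most abundant members per length in untreated cells and up to 5 called members per direction with the smallest p. They are also given for the 3 highest and 3 lowest siRNA ratios and some of the role members. Other lists give up to 4 genes. The members and gene lists were chosen with earlier results of these data known. Alternatives were DESeq2 1.42.0, RLE factors, library totals, no filter, the compared groups alone, a replicate block, removal of a length trend, and leaving out each library, which assumes that the lone sample varies like the other groups. Removal of coding GC trends and a count over members with whole tags alone were added after seeing the data. A marker of the cell type lists is not reported here.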

Additional observations from a re-analysis of the deposited data

Results flagged for a closer look

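For 5 ZBTB genes the effect of crosslinking at 365 nm in 4SU-fed cells differed from that at 254 nm in unfed cells by the edgeR test of the difference itself. The log2 difference was −2.39 for ZBTB45, −1.87 for ZBTB17, −1.68 for ZBTB48, −1.88 for ZBTB9 and −2.95 for ZBTB49, each the 365 nm effect minus the 254 nm effect. None of the 5 calls held without 365 nm library B. ZBTB45, with an edgeR adjusted p of 0.0718 there, held without each of the other libraries. ZBTB17 was lost without that library (edgeR adjusted p 0.0700) or without 254 nm library A (0.0526), ZBTB9 without any of 3 libraries, ZBTB48 without any of 5 and ZBTB49 without any of 6. ZBTB49 rests on 3 tags in the 365 nm libraries.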

How the results depend on the processing

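The labels do not say that the letters A and B pair samples, and the A minus B deviations of the groups had correlations from −0.081 to 0.346, so the samples were treated as unpaired. With the replicate block, 5 members were higher with 4SU alone (6.28% of all genes). At 365 nm 26 were then lower (35.7%), and at 254 nm 3 were higher and 18 lower (26.8% and 29.8%). The shares of all genes moved in other settings as well. Higher with 4SU were 1.87% by DESeq2, and 4.83%, 5.27% and 7.95% with the length trend, the GC trend and both removed. Lower with the length trend removed were 25.9% at 365 nm and 17.8% at 254 nm. At 254 nm 10.1% were higher with library totals and 25.7% with the GC trend removed. With both trends removed, 12.9% were higher and 13.5% lower there. The count of 3 members higher with 4SU was 1 by DESeq2, 5 with the length trend removed, 5 with the coding GC trend removed, 9 with both removed, and 0 to 5 when a library was left out. The 23 members lower at 365 nm became 15 with the length trend removed, 12 of the 20 tested members with whole tags only, and 15 to 27 when a library was left out. The count of 3 members higher at 254 nm was 0 with library totals, 1 with the GC trend removed (ZBTB25, none of the 3), 0 with both trends removed, and 1 to 3 when a library was left out. The 18 lower at 254 nm became 9 with the length trend removed, 5 with both removed and 10 of the 20 with whole tags only, and the log2 fold change of ZBTB40 turned from −1.05 to 0.46 and 0.59 with the length trend and with both trends removed. For all genes in 4SU with 365 nm against 254 nm, the shares higher and lower were 16.9% and 6.95% by DESeq2. They were 18.2% and 8.88% with RLE factors, 18% and 16% with the GC trend removed, and 23.4% and 21.4% with the compared groups alone. Of the members, 1 was higher and 3 lower in this comparison (15.2% and 12.5% of all genes). The counts higher and lower were 3 and 0 by DESeq2, 3 and 1 with RLE factors, 0 and 12 with library totals (4.6% and 42.9% of all genes), 2 and 5 with the GC trend removed, 2 and 5 of the 17 members tested with the compared groups alone, and 0 to 3 and 1 to 5 when a library was left out; the median of −0.05 then ranged from −0.71 to 0.21, the latter without 254 nm library A. The 5 members with a lower difference of effects became 2 by DESeq2, 15 with library totals (32.5% of all genes) and 0 to 6 when a library was left out, and 0 to 2 members were then higher. The median siRNA ratio was −0.23 with library totals. Trend removal with GC tested 11196 genes. The causes of these shifts were not tested. Over all comparisons and settings, 131 counts of members stayed within 1.5 times the main count and 47 did not. Each member has 1 transcript, so the transcripts as deposited gave the same values.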
